A study of Homo sapiens with 24 samples.

Results

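The genes described here carry the name RBM, for RNA-binding motif, and one of them, RBM47, was set against all the others. They were taken by symbol from 2 tables of the authors' own comparisons: RBM followed by a number and an optional letter, RBMS with an optional digit, and RBMX with an optional digit. This gave 43 genes out of 58780 listed, of which 42 are protein-coding and 1, RBM8B, is a processed pseudogene. RBM47 was singled out because its log2 fold change and adjusted p in both tables set it apart, so those values describe it and were not tested again here. The other 42 genes were taken by name and not by their own values. The family itself was taken up with earlier results of these data known.

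RBM proteins bind RNA mostly through RNA recognition motifs. The name covers proteins of separate descent and task, among them spliceosome components, a core protein of the exon junction complex, adaptors of the m6A writer, parts of nuclear RNA decay and ribosome assembly, and regulators of mRNA stability. RBM47 is closest to RBM46, A1CF, HNRNPR and SYNCRIP. It is known as a cofactor of the cytidine deaminase APOBEC1 in C-to-U editing of apolipoprotein B mRNA, and it binds and stabilises messages in other cells.

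The study knocked down PRKCQ, the gene of protein kinase C theta, a kinase downstream of the T cell receptor, in MyLa and HuT 78 cells. MyLa is a cell line labelled mycosis fungoides and HuT 78 one labelled Sézary syndrome, both cutaneous T cell lymphomas. RNA was sequenced from 24 libraries in 8 groups of 3: each line with a non-targeting control hairpin (NTC) or a hairpin against PRKCQ (shPRKCQ), treated for 24 h with the vehicle DMSO or with 10 ng/ml TPA, a phorbol ester and direct activator of protein kinase C. For the knockdown, doxycycline was present at 1 µg/ml during no less than 72 h ahead of treatment, and whether NTC cells also received it is not given in the sources used here, so a drug effect and a hairpin effect cannot be told apart. Each table sets the hairpins against each other over both lines together, 6 libraries against 6. The labels name no second PRKCQ hairpin, so an effect of the loss of PRKCQ and another effect of its hairpin cannot be told apart.

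Values per library are not analysed here, so depth is unknown, a level cannot be given, and neither the spread between libraries nor a difference between the lines can be shown. The values below are the authors' log2 fold changes, where negative means lower in shPRKCQ cells, with p-values that the authors adjusted over the genes they tested, those with an adjusted p. The direction was read from PRKCQ itself, at 23.1% of the NTC level in DMSO and 23.7% in TPA, computed from the authors' deposited tables. Of 6 T cell markers, 3 are listed in the DMSO table and 6 in the TPA table, and of 9 markers of B cells, myeloid cells and epithelial or stromal cells, 2 and 9 are. The authors' deposited tables call none of these markers; those of other cell types lie between 0.31 and 0.36 in DMSO and between -0.46 and 0.42 in TPA on the log2 scale, and their part in any result below was not tested.

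RBM47 (ENSG00000163694.14) lies on chromosome 4 from 40423267 to 40630875 on the minus strand (GRCh38, GENCODE 29). Its span of 207609 bases is exceeded among the 43 genes only by RBMS1 and RBMS3, against a median of 28471. GENCODE 29 gives it 15 transcripts, and RefSeq places its 4 listed starts in 2 regions: measured from the start farthest upstream, the others lie 0.73 kb, 115 kb and 116 kb away. A fold change of the whole gene does not tell these starts apart. Of the 250 bases before each start, those before the start at 115 kb (12 bases from the start of transcript RBM47-203) are the only ones free of RBM47 exon sequence. They are shown here because they are the cleanest promoter stretch of the gene that fell, at chr4:40515986-40516235 (GRCh38.p14, RefSeq), minus strand, 5′ to 3′, with matches to GGAAA or GGGCGG in capitals.
RBM47, start at 115 kb: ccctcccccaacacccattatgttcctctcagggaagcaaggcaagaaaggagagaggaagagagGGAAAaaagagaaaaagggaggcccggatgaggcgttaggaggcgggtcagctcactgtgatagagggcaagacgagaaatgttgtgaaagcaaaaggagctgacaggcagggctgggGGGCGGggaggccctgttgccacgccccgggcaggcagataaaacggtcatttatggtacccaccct
GGAAA is the core letters of NFAT sites, TGANTCA those of AP-1 sites and GGGCGG those of GC boxes; each was searched on both strands. GGAAA was found before 2 of the 4 RBM47 starts, beside 55.8% of 43 start windows of 38 RBM genes and 55.6% of all 35116 windows. TGANTCA was found before none of the 4, in the windows of RBM22 and RBM25 (4.65% of the family's) and in 6.57% of all. GGGCGG was found before 3 of the 4, in 55.8% of the family's windows and in 42.6% of all. The kappaB consensus had no match in the family's windows and matched 5.21% of all. These are letter matches, not sites.

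RBM47 was lower in shPRKCQ cells with and without the phorbol ester, with nearly the same deposited fold change. In DMSO the authors' deposited table gives it a log2 fold change of -0.71, or 61.0% of the NTC level, with an adjusted p of 0.00657. In TPA the authors' deposited table gives -0.69, or 61.8% of the NTC level, with an adjusted p of 0.00518. The standard errors implied by fold change and p-value were 0.15 in both, and the implied 95% intervals ran from -1.02 to -0.41 in DMSO and from -0.98 to -0.40 in TPA. The TPA value exceeded the DMSO value by 0.019, with an implied 95% interval of that difference from -0.40 to 0.44, so a difference smaller than these bounds was not resolved. The comparison takes both treatments to be on 1 scale, which may not hold because the TPA fold changes may be shrunken. By p-value RBM47 ranked 8 of 13007 genes in DMSO and 10 of 19417 in TPA, per the authors' deposited tables. By size of the fall its ranks were only 74 and 186. As the libraries are bulk RNA, fewer cells that carry RBM47 RNA and less of it per cell cannot be told apart.

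**Figure D1:**
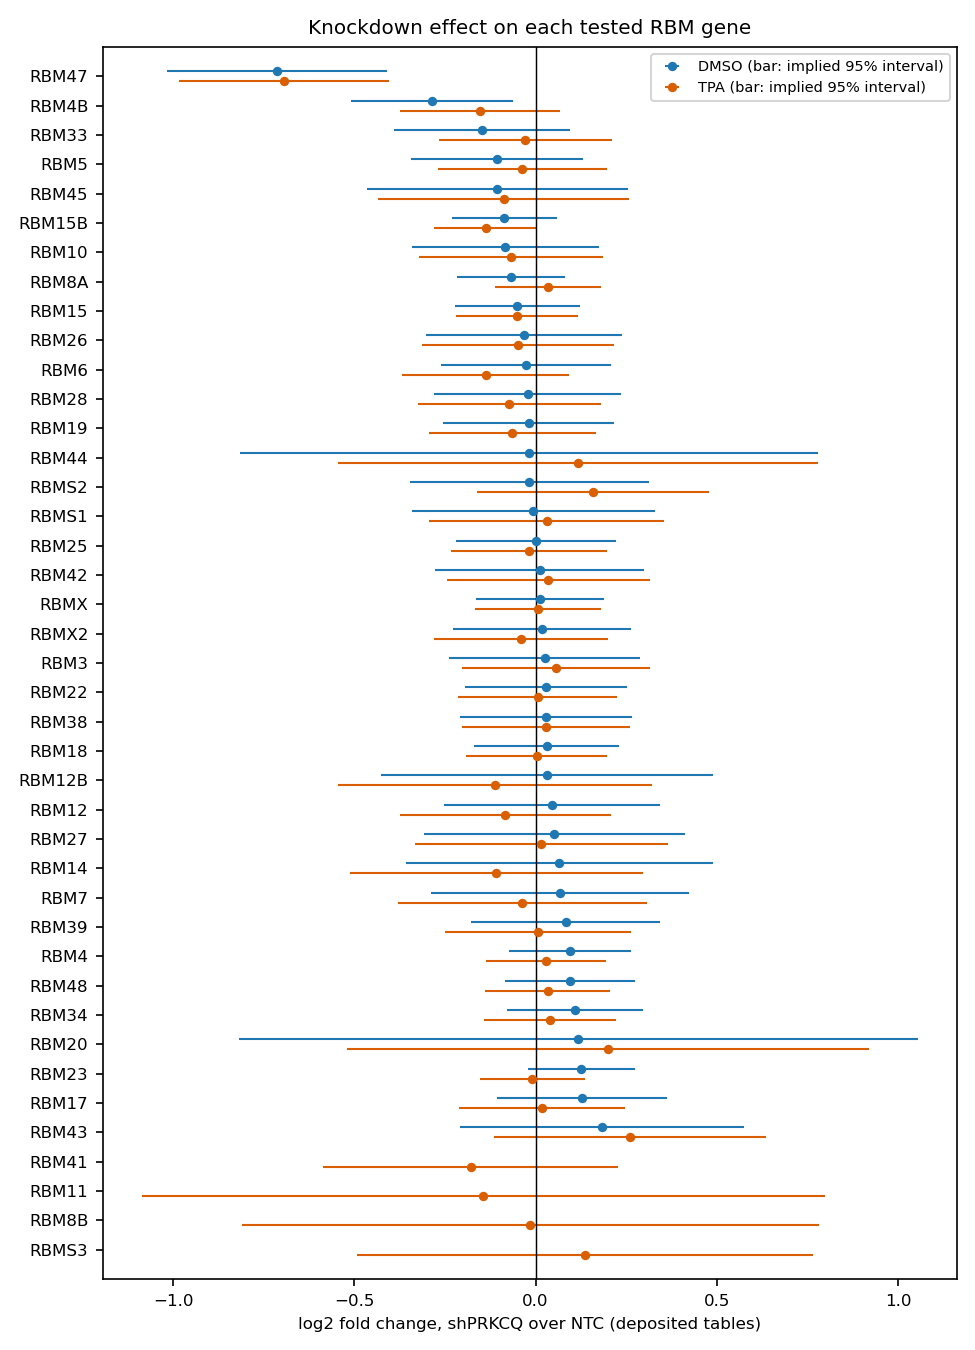
Log2 fold change (shPRKCQ over NTC, horizontal axis) of each RBM gene with an adjusted p, in DMSO (blue) and TPA (orange), with bars for the implied 95% interval; genes are ordered by the DMSO value and the 4 tested in TPA only are at the bottom. RBM47 lies at -0.71 and -0.69, and every other point lies between -0.29 and 0.26.

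RBM47 was the only family member that passed in either treatment. Adjusted p-values exist for 37 of 43 members in DMSO and for 41 in TPA, and 1 passed in each at an adjusted p under 0.05, against 0.108% of all genes in DMSO and 0.113% in TPA. Because RBM47 was picked for this, nothing is read from these counts. At an unadjusted p under 0.05 the DMSO count was 2 members, RBM47 and RBM4B, beside 3.04% of all genes, and the TPA count was 1, RBM47, beside 3.99%. Without RBM47 the 36 remaining members had a median log2 fold change of 0.015 in DMSO, with 15 lower and 21 higher, and the 40 in TPA had a median of -0.012, with 21 lower and 19 higher. All genes tested had medians of 0.0075 and 0.011, with 6203 of 13007 and 9132 of 19417 lower.

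The fold change of RBM47 lay well below that of the next lowest member, though their implied intervals overlapped. In DMSO the next lowest in the authors' deposited table was RBM4B at -0.29, then RBM33 at -0.15, and the highest were RBM43 at 0.18, RBM17 at 0.13 and RBM23 at 0.13. In TPA the authors' deposited table has RBM41 at -0.18, RBM4B at -0.15 and RBM11 at -0.14 after RBM47, with RBM43 at 0.26, RBM20 at 0.20 and RBMS2 at 0.16 at the other end. The implied 95% interval lay wholly above the RBM47 value for 34 of 36 other members in DMSO, without RBM20 and RBM44. In TPA this held for 38 of 40, without RBM11 and RBM8B. These counts leave out the error of RBM47, which was chosen for its fall. Its own interval reached up to -0.41 in DMSO, where that of RBM4B reached down to -0.51. In TPA it reached up to -0.40, where that of RBM41 reached down to -0.59. It lay wholly within -0.5 and 0.5 for 32 of 36 in DMSO and 31 of 40 in TPA.

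The errors decide how small a change could have passed. From the implied errors and the largest p that passed in each table, the smallest passing change over the other members ran from 0.30 to 1.94 on the log2 scale in DMSO, with a median of 0.50, and from 0.29 to 1.95 in TPA, with a median of 0.52. For RBM47 it was 0.63 and 0.60. A change as large as that of RBM47 would have passed for 28 of the 36 other members in DMSO and 28 of the 40 in TPA. RBM20, the regulator of titin splicing in heart muscle, and RBM44 had the widest errors in DMSO, and RBM11, the pseudogene RBM8B and RBM20 had the widest in TPA; for these a change as large as that of RBM47 would not have passed.

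**Figure D2:**
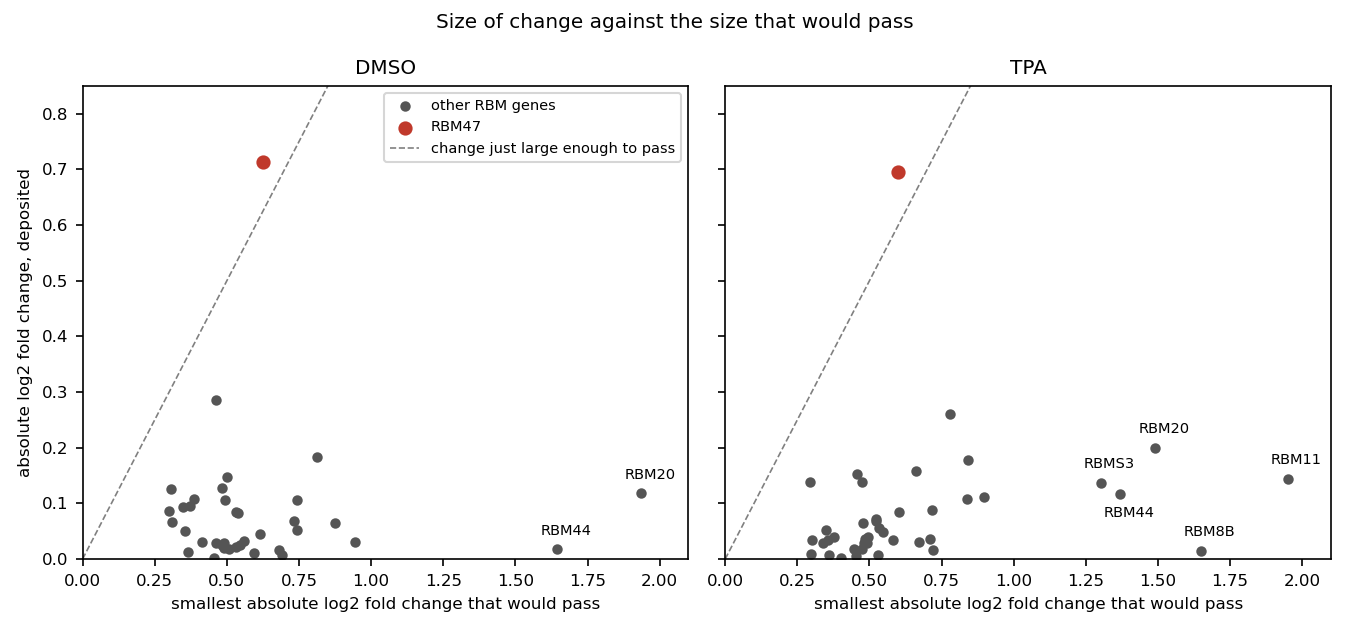
Absolute log2 fold change of each tested RBM gene (vertical axis) against the smallest absolute log2 fold change that would have passed given its implied error (horizontal axis), in DMSO (left) and TPA (right). RBM47 is the only point above the dashed line of equality, and members at the right, such as RBM20 in DMSO and RBM11 in TPA, could have passed only with a change near 1.94 or 1.95.

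The closest relatives of RBM47 gave little. RBM46, a germ cell relative, and A1CF, the other known cofactor of APOBEC1, are listed without a fold change in the authors' deposited TPA table. Neither is listed for DMSO. HNRNPR and SYNCRIP, nuclear ribonucleoproteins with the same arrangement of RNA recognition motifs, were at -0.012 and 0.061 in DMSO and at -0.0096 and 0.029 in TPA, per the authors' deposited tables. DND1, a germline relative, was at -0.20 in DMSO (unadjusted p = 0.453) and -0.0086 in TPA, per the authors' deposited tables. APOBEC1 itself, the deaminase that RBM47 assists, was at -1.17 in TPA, per the authors' deposited table, or 44.6% of the NTC level, with an unadjusted p of 0.00399 and an adjusted p of 0.527. Its implied 95% interval ran from -1.96 to -0.37, it did not pass, and it is not listed for DMSO.

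Transcripts reported elsewhere as bound or regulated by RBM47 did not pass in either treatment. Of the 5 listed, 3 were tested in DMSO and 4 in TPA, and 0 passed in each. As 0.108% of all genes passed in DMSO and 0.113% in TPA, nothing is read from this count. AXIN1, a scaffold that restrains Wnt signalling and whose mRNA RBM47 is reported to stabilise, was at 0.17 in DMSO (unadjusted p = 0.101) and 0.24 in TPA (unadjusted p = 0.0199), per the authors' deposited tables, with an adjusted p of 1.00 in both. IFNAR1, a chain of the type I interferon receptor, was at -0.088 and -0.031 in DMSO and TPA, per the authors' deposited tables. CDKN1A, the cyclin-dependent kinase inhibitor p21, was at 0.056 in DMSO with an implied standard error of 0.83, and at -0.043 in TPA, per the authors' deposited tables. TJP1, a tight junction protein, was tested in TPA only, at 0.30 with an unadjusted p of 0.342, per the authors' deposited table.

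RBM4 and RBM4B, regulators of splicing and translation, stood on opposite sides of 0 in vehicle. RBM4B was at -0.29 in DMSO, or 82.1% of the NTC level, per the authors' deposited table, with an unadjusted p of 0.0123, an adjusted p of 1.00 and an implied 95% interval from -0.51 to -0.062. RBM4 was at 0.094 in DMSO, per the authors' deposited table (unadjusted p = 0.273). In TPA the authors' deposited table has RBM4B at -0.15 and RBM4 at 0.028 (unadjusted p = 0.173 and 0.735). These genes are neighbours on chromosome 11 (RBM4 from 66638617 to 66668374, plus strand, and RBM4B from 66664998 to 66677921, minus strand), their 3′ ends overlap on opposite strands, and they are near copies of each other. The first 120 coding bases of each, in exon 2 of RBM4-201 (chr11:66639712-66639831, plus strand) and of RBM4B-201 (chr11:66676960-66677079, minus strand; GRCh38, GENCODE 29), are shown to let a reader see how alike they are, with bases that differ in capitals.
RBM4: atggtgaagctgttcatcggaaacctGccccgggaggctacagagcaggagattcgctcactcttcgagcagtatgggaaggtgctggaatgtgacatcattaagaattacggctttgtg
RBM4B: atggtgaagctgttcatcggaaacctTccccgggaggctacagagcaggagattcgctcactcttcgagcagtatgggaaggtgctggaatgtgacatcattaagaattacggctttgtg
They differ at 1 of these 120 bases and at 14 of the 412 coding bases of this exon, an identity of 96.6%. Of all 50-base stretches in RBM4B transcripts, 5.46% also occur in a transcript of another gene, mostly RBM4, and for RBM4 the share is 22.5%, mostly the readthrough gene RBM14-RBM4. How the authors' counting split such reads is not given in the sources used here, so both values are uncertain.

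Shared sequence touched other members as well. Of the 43 genes, 20 share more than 1% of their 50-base stretches with another gene's transcripts, and 13 share none. The shares were 49.6% for RBM34 (with ARID4B), 44.3% for RBM27 (with the clone-based gene AC091959.3) and 15.1% for RBMX (with RBMXL1). RBM8B shares 48.5% with its parent RBM8A. For RBM47 the share is 0.775%.

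Splicing regulators and spliceosome proteins made up the largest role, with 16 genes. The 13 tested in DMSO had a median of 0.018, with 3 lower and 10 higher, and the 15 tested in TPA had a median of -0.0087, with 8 lower and 7 higher. In both treatments 0 passed, beside 0.108% of all genes in DMSO and 0.113% in TPA. An unadjusted p under 0.05 was held by 0, beside 3.04% and 3.99% of all genes. The lowest in DMSO was RBM5, which steers exon choice in apoptosis genes, at -0.11, and the highest were RBM17, the splicing factor SPF45, and RBM23, a relative of RBM39, both at 0.13, per the authors' deposited table. RBM23 had the smallest p of this role, unadjusted p = 0.095 in DMSO, and was at -0.0087 in TPA, per the authors' deposited tables. RBM39, the splicing factor that aryl sulfonamide drugs degrade, was at 0.083 and 0.0067, RBM10 at -0.084 and -0.068 and RBM25 at 0.0016 and -0.018 in DMSO and TPA, per the authors' deposited tables. RBM22, part of the catalytic spliceosome, was at 0.029 and 0.0061, and RBMX, also known as hnRNP G, at 0.012 and 0.0073, per the authors' deposited tables. RBM41, a protein of the minor spliceosome, was the lowest in TPA at -0.18 (unadjusted p = 0.39), and RBM20 the highest at 0.20 (unadjusted p = 0.586), per the authors' deposited table. RBM42 and RBM48 were at 0.011 and 0.095 in DMSO and at 0.035 and 0.034 in TPA, per the authors' deposited tables. RBM6, the gene beside RBM5, was at -0.026 and -0.14 and RBMX2 at 0.018 and -0.040, per the authors' deposited tables. RBM11, a tissue-restricted splicing regulator, was tested in TPA only, at -0.14, per the authors' deposited table. RBM24, a muscle splicing factor, is listed in the TPA table without a fold change.

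The exon junction, m6A and export genes had medians below 0 in both treatments, -0.076 in DMSO and -0.040 in TPA. In each, 0 of 4 passed, beside 0.108% of all genes in DMSO and 0.113% in TPA. At an unadjusted p under 0.05 it was also 0 of 4, beside 3.04% and 3.99%. RBM8A, the exon junction protein Y14, was at -0.067 in DMSO and 0.034 in TPA, per the authors' deposited tables. RBM15 and RBM15B, which guide the m6A methyltransferase to its targets, were at -0.050 and -0.086 in DMSO and at -0.052 and -0.14 in TPA, per the authors' deposited tables. RBM15B had the smallest unadjusted p of the family in TPA after RBM47, at 0.0573, with an implied 95% interval from -0.28 to 0.0043. RBM33, a cofactor of the m6A demethylase ALKBH5, was at -0.15 and -0.029, per the authors' deposited tables (unadjusted p = 0.232 and 0.814).

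Nuclear decay and ribosome assembly genes gave no call, with 0 of 3 passing for each role in each treatment. At an unadjusted p under 0.05 it was also 0 of 3. Over all genes, 0.108% passed in DMSO and 0.113% in TPA, and 3.04% and 3.99% had an unadjusted p under 0.05. RBM7, of the nuclear exosome targeting complex, was at 0.068 and -0.036, RBM26 at -0.033 and -0.048 and RBM27 at 0.052 and 0.016 in DMSO and TPA, per the authors' deposited tables. The nucleolar proteins RBM19, RBM28 and RBM34 were at -0.019, -0.022 and 0.11 in DMSO and at -0.064, -0.072 and 0.039 in TPA, per the authors' deposited tables.

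Genes of mRNA stability, cold shock and nucleic acid binding also gave no call, beside 0.108% of all genes in DMSO and 0.113% in TPA. The stability and cold shock genes are RBM3, RBM38, RBM4 and RBM4B, all 4 tested in each treatment. At an unadjusted p under 0.05 they counted 1 in DMSO, RBM4B, and 0 in TPA. The RBMS genes, 2 tested in DMSO and 3 in TPA, counted 0 in each. Over all genes these shares were 3.04% and 3.99%. RBM3, the cold-inducible protein, was at 0.025 and 0.056 and RBM38, which acts on the p21 message, at 0.029 in both, in DMSO and TPA, per the authors' deposited tables. Of the RBMS genes, which bind single-stranded nucleic acid, RBMS1 was at -0.0070 and 0.031 and RBMS2 at -0.017 and 0.16, per the authors' deposited tables. RBMS3 was tested in TPA only, at 0.14 with an unadjusted p of 0.669, per the authors' deposited table. Among the members without a shared role, RBM43 was the highest of the family in both treatments, at 0.18 and 0.26, per the authors' deposited tables (unadjusted p = 0.36 and 0.175). RBM14, a nuclear coactivator also found in paraspeckles, was at 0.065 and -0.11, RBM45 at -0.11 and -0.088 and RBM12 at 0.045 and -0.084 in DMSO and TPA, per the authors' deposited tables. RBM12B was at 0.031 and -0.11 and RBM18 at 0.030 and 0.0027, per the authors' deposited tables. RBM44, a germ cell protein, was at -0.018 and 0.12, and the pseudogene RBM8B, tested in TPA only, at -0.015, per the authors' deposited tables.

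The knockdown effect in TPA was set against that in DMSO for each member, and none passed as different. Each difference of fold changes was divided by its implied error over 13007 genes in both tables, with Benjamini-Hochberg adjustment over all of them: 0 of the 36 members besides RBM47 passed, beside 0% of all genes, and 0 had an unadjusted p under 0.05, beside 0.438% of all genes. The robust SD of the difference z-values over all genes was 0.579, below the value of 1 that the test assumes. The test also takes both treatments to be on 1 scale, while TPA fold changes may be shrunken and their implied errors may not hold for every gene. The smallest unadjusted p was 0.201, for RBM23, and the largest difference 0.18, for RBMS2. Of these 36 members, 11 were lower and 14 higher in both treatments, 4 were lower in DMSO and higher in TPA, and 7 the reverse. Across them the fold changes of both treatments correlated with a Pearson r of 0.54 (Spearman rho 0.47). These points share the hairpins, the lines and possibly the cultures, so the correlation describes these tables only.

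**Figure D3:**
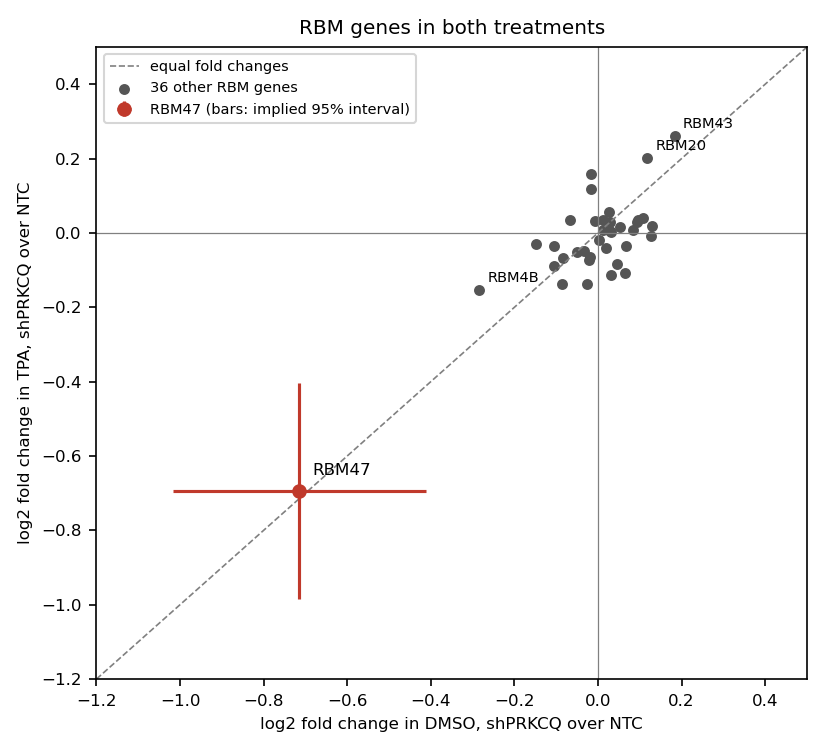
Log2 fold change in TPA (vertical axis) against that in DMSO (horizontal axis) for the RBM genes tested in both; the dashed line marks equal fold changes and the bars of RBM47 its implied 95% intervals. RBM47 lies near the line at -0.71 and -0.69, apart from the 36 other members, which lie between -0.29 and 0.26.

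Other RNA-binding gene lists held no gene with an adjusted p under 0.05 in the authors' deposited tables. Over all genes tested, 0.108% passed in DMSO and 0.113% in TPA, and 3.04% and 3.99% had an unadjusted p under 0.05. Counts of 0 in lists of this size are near those shares, so nothing is read from them. Of 25 hnRNP genes, which package nascent transcripts and include HNRNPR and SYNCRIP again, 0 passed in either treatment and 0 had an unadjusted p under 0.05, with medians of 0.036 in DMSO and 0.013 in TPA and a full range from -0.17 for PCBP1 in TPA to 0.14 for HNRNPA2B1 in DMSO, per the authors' deposited tables. Of 14 SR splicing factor genes, 13 were tested in each, 0 passed, and 0 had an unadjusted p under 0.05, with medians of 0.046 and -0.027. Of 18 partners of RBM proteins in their complexes, 0 passed and 0 had an unadjusted p under 0.05, with medians of 0.027 and -0.0016. The lowest partner in both was ARMC7, which pairs with RBM48 in minor intron splicing, at -0.18 in DMSO and -0.21 in TPA, per the authors' deposited tables (unadjusted p = 0.135 and 0.0756). WTAP, an adaptor of the m6A writer, had the smallest p of the partners in DMSO and was at 0.14 there and 0.050 in TPA, per the authors' deposited tables (unadjusted p = 0.112 and 0.559). The smallest p among hnRNP genes belonged to PCBP2 in DMSO, at -0.092 (unadjusted p = 0.272), and to HNRNPH3 in TPA, at 0.13 (unadjusted p = 0.199), per the authors' deposited tables. Among SR genes it belonged to TRA2A in DMSO, at 0.15 (unadjusted p = 0.195), and to SRSF8 in TPA, at -0.13 (unadjusted p = 0.292), per the authors' deposited tables. TPA p-values were also rescaled by the robust SD of z over all genes with a p-value. Over these lists and those of RBM47 kin and reported RBM47 targets, 5 of 62 genes then passed, beside 12.3% of all genes tested. They were APOBEC1 of the kin, AXIN1 of the targets, ARMC7, VIRMA and ZCCHC8. That SD, 0.505, includes 14607 genes without an adjusted p. With the SD over tested genes only, 0.840, 0 of the 62 passed, so nothing is read from the 5.

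**Figure D4:**
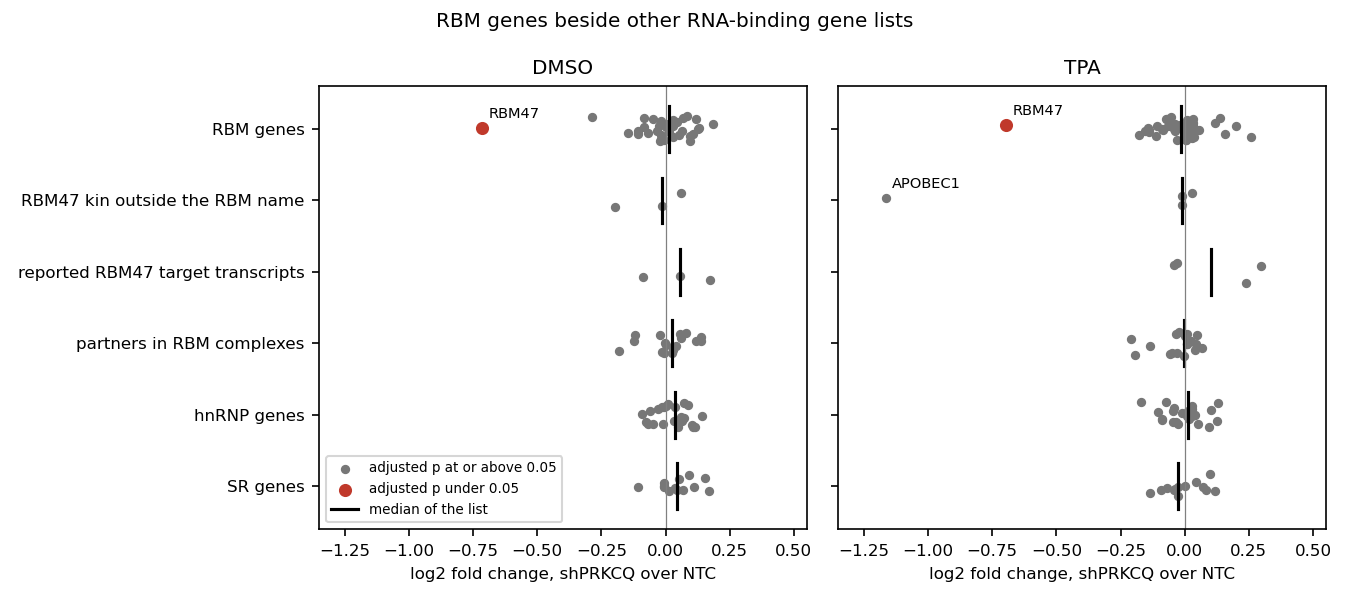
Log2 fold change (horizontal axis) of every tested gene of 6 lists in DMSO (left) and TPA (right). The lists are RBM genes, RBM47 kin, reported RBM47 target transcripts, partners in RBM complexes, hnRNP genes and SR genes. Each point is a gene, black bars are list medians, and red marks an adjusted p under 0.05. RBM47 is the only red point, and APOBEC1 at -1.17 in TPA lies lowest without passing.

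The genes beside RBM47 on chromosome 4 did not pass. Of 6 protein-coding genes within 500 kb, a set chosen by position after the values of RBM47 were known, DMSO tested 4 and TPA tested 5. At an unadjusted p under 0.05 the count was 0, beside 3.04% of all genes in DMSO and 3.99% in TPA. At an adjusted p under 0.05 the shares of all genes were 0.108% and 0.113%. APBB2 was at -0.45 in DMSO (unadjusted p = 0.0528) and -0.15 in TPA, per the authors' deposited tables. PDS5A, a regulator of cohesin, was at -0.065 and -0.12 (unadjusted p = 0.303 and 0.059), and N4BP2 at -0.055 and -0.18, per the authors' deposited tables. RHOH, a GTPase of T cell receptor signalling, was at 0.079 and -0.079, and CHRNA9, tested in TPA only, at -0.11, per the authors' deposited tables. In TPA all 5 lay below 0, from -0.18 to -0.079, and in DMSO the 4 ran from -0.45 to 0.079.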

How the data were processed

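RNA sequencing of MyLa and HuT 78 cells was used through 2 comparison tables. DESeq2 1.18.1, RSEM 1.3.0, STAR 2.5.3a and the build GRCh38 stand in the submitters' processing notes, with no role for each; the fitted model, and whether fold changes were shrunken, is not given in the sources used here. A log2 fold change from the authors stands, per the file headers, beside each gene's deposited p-value before and after adjustment. The DMSO table lists 13025 genes, 13007 with an adjusted p-value, and in TPA 58780 genes are listed, 19417 with one. In TPA, 2910 genes share 1 fold change, so those values may be shrunken and the tables may not be on 1 scale. Depth per library is unknown.

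The planned count model applied only to counts per library, which are not used here, so the authors' p-values stand. An implied standard error is the log2 fold change divided by the z-value of its p-value, and it assumes that both come from 1 fit. Over all genes tested, these errors ran from 0.042 to 1.64 in DMSO and from 0.0013 to 18.7 in TPA. The assumption may therefore not hold for every gene in TPA. Over the RBM genes they ran from 0.074 to 0.48 in DMSO and from 0.072 to 0.48 in TPA. The p-values rest on samples that the series text calls independent replicates. The difference test, TPA minus DMSO, takes the tables as independent. On simulated data with effects of 5 implied errors it recovered 95.5%, which says nothing about smaller differences. Named genes were RBM47, members with an unadjusted p under 0.05, the 3 lowest and 3 highest per table, the lowest and highest of each role and the kin and smallest p of other lists; the remaining members are given so that each is accounted for. Members and lists were chosen with earlier results of these data known. One item of the reported RBM47 targets is not reported here and was left out of that list. All identifiers of the 43 genes matched GENCODE 29; 38 have a RefSeq promoter entry. Alternatives are given in the closing section. Scripts ran under Python 3.11.15 with pandas 2.3.3, scipy 1.17.1 and numpy 2.4.6.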

Additional observations from a re-analysis of the deposited data

How the results depend on the processing

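RBM47 was chosen on these values, so its adjusted p under other settings is only a description. In TPA it was 0.00699 when adjusted over every gene with a p-value, and 0.00579 over genes of both tables. In DMSO both of these settings hold the same 13007 genes as the main one, so the value of 0.00657 could not change. Rescaling by an SD below 1 can only lower a p-value. The count of RBM genes called stayed at 1 under every alternative run in DMSO, and in TPA under all but one. In DMSO only the other thresholds and the rescaling could have changed it. When TPA p-values were rescaled by the robust SD of z over all genes with a p-value, 0.505, the count was 2, RBM47 and RBM15B, and the other lists rose from 0 to 5 genes of 62; over all 19417 tested genes the count rose from 22 to 2383, or 12.3%. That SD includes 14607 genes without an adjusted p; over tested genes only, an alternative chosen after seeing the data, the SD was 0.840 and the counts were 1 and 0. The family median in DMSO was 0.012, with 0.015 without RBM47, 0.0047 after subtracting the median of all genes and 0.0016 without members that share sequence. In TPA it was -0.015, with -0.012, -0.026 and -0.029 under the same alternatives and -0.0087 over members tested in both tables or listed in DMSO. Subtracting the median of all genes and leaving out members with shared sequence were also added at that stage. No paired analysis was possible because only comparisons of whole groups, and no library's own values, were used. Left-out replicates, other normalizations and other count tools were not run for the same reason, and what depth limits could not be assessed.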
